A study of Homo sapiens with 60 samples.

Results

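Vehicle-treated cells harvested at 3 h were compared with vehicle-treated cells harvested at 1 h, in the human breast cancer line MDA-MB-231, an established triple-negative line with mesenchymal features. The 12 libraries labelled DMSO_1h and DMSO_3h, 6 at each time, were taken from the deposited table of 60 libraries. DMSO is the solvent of the compound, so neither group received any compound, and the groups differ by label only in the time of harvest. The other libraries whose levels or changes are given here are 9 at 1 h and 9 at 3 h from cells given BAY2506856 at 100, 300 or 1000 nM (3 libraries at each dose and time), and 6 DMSO libraries each at 6 h and at 24 h. The treated libraries at 6 h and 24 h entered only the model, which was fitted to all 60 libraries. Per the series' text the cells had grown overnight before the addition. That text gives a harvest at 24 h, whereas the sample labels give 1, 3, 6 and 24 h, and neither describes a change of medium or any other handling step. No untreated or time-zero sample was used here, so the solvent, the handling and the passage of time cannot be told apart. Whether a replicate was its own culture is not stated in the labels. The p-values below therefore reflect the spread among libraries alone, estimated over all 60 of the table, and that spread may be technical.

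Adding fluid to cultured cells, moving the plates or changing the medium is known to start a brief wave of transcription. Immediate early genes such as EGR1 and FOS are switched on within minutes by ERK and serum response factor (SRF), and their messages, which decay fast, are soon lost again. Delayed genes follow, among them the phosphatases and repressors that shut the signal down, and cell shape and serum factors also act through the coactivators YAP1 and TAZ, whose best-known targets are CYR61 and CTGF. A culture sampled early and again somewhat later is therefore on a changing baseline, against which any treatment is read.

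Levels are given as FPKM (fragments scaled to transcript length in kilobases and to library depth), and changes as log2 of FPKM plus 0.5, which understates the change of genes with low levels. DMSO libraries held 7.48 to 30.8 M reads at 1 h and 2.37 to 48.6 M at 3 h. By technical features of the values, the 12 libraries were of 3 types that the labels do not describe, and the same mixture was present at both times, 2 libraries of the first type, 1 of the second and 3 of the third. The third type had 56.9 to 105 FPKM of the mitochondrial message MT-ND6 against 0.85 to 5.71 in the first. Type was a term of the model. Of the 12 markers of MDA-MB-231 cells, 11 were tested, and all 12 together summed to 2033 to 2520 FPKM at 1 h and 2215 to 2518 FPKM at 3 h. SPARC, the 1 not tested, was under 1 FPKM in all 12 libraries (0.24 to 0.344 FPKM at 1 h and 0.111 to 0.391 FPKM at 3 h). The markers of fibroblasts, endothelium and leukocytes summed to at most 5.77, 1.01 and 2.50 FPKM in any of the 12 libraries, and PLAU was the 1 marker of the line called (-0.18). Levels were low for 5 of the 8 fibroblast markers, all 6 endothelial markers in the table and 5 of the 6 leukocyte markers in the table, all under 1 FPKM in all 12 libraries. Luminal breast markers summed to 294 to 430 FPKM at 1 h and 341 to 414 FPKM at 3 h, mostly keratins, with 0 of 9 tested called (2 at an unadjusted p under 0.05, and 1 lower by voom).

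From 1 h to 3 h in DMSO, 333 of 15866 tested genes changed (2.1%; limma, Benjamini-Hochberg adjusted p under 0.05), of which 204 rose (1.29%) and 129 fell (0.813%). The changes were small. The median size was 0.30 on the log2 scale among the genes that rose and 0.27 among those that fell, 22 genes rose and 7 fell by 1.5-fold or more, and 4 moved by 2-fold or more. These were DDIT4 and the clone-named RP11-129B9.1, which rose, and SNORA34 and CTD-2517M22.17, which fell, the last 3 named after their values were seen. With no type terms 85 of the 333 passed. Of the called genes followed by name through the other fits, 33 lost their call. Beside EGR1, CSRNP1 and the 8 mitosis genes below, these were BCL3, SNAI1, ZSWIM3, IL11, NFKBIZ, IRF1, TNFAIP3, AMOTL2, F3, DUSP5, ERRFI1, NPAS2, CLK4, ZNF699, C8orf58, HSPA5, ZFP36L1, CYP1B1, PFKFB4, SRSF2, HK2, PDLIM5 and PLAU (adjusted p 0.0622 to 0.862). From the 12 libraries alone 109 of the 333 passed, and 25 of the followed genes lost their call (adjusted p 0.0503 to 0.212). Among them CDKN1B (0.056), CRY1 (0.0559) and SLC2A3 (0.0543) had kept it with no type terms. SNORA34 rested on 1 to 6 reads a library at 1 h and 0 to 2 at 3 h. Genes whose 6 levels at 3 h lay entirely above or entirely below the 6 levels at 1 h numbered 77 and 40 (0.485% and 0.252% of the genes tested). Of the 204 genes that rose, 51 were separated in this way, and 170 were separated within each library type, as were 2.44% of all tested genes. Of the 129 that fell, 25 were separated over all 12 libraries and 81 within each type, as were 1.66% of all tested genes. The same 12 libraries chose these genes, so their separation follows in part from the choice and is a description.

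DDIT4 rose most among genes with a standard symbol. It encodes an inhibitor of mTORC1 that is induced by stress, glucocorticoids and low energy. The level was 4.89, 8.64 and 10.1 FPKM (lowest, median and highest library) at 1 h and 20.7, 24.2 and 26.4 FPKM at 3 h. All 6 libraries at 3 h were above all 6 at 1 h, and the log2 change was 1.51 ± 0.09 (SE; adjusted p = 1.17e-17, limma). The level was a median of 22.0 FPKM at 6 h and 48.2 FPKM at 24 h.

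Below DDIT4 came a mixed group of regulators. TOB2, an antiproliferative protein that recruits mRNA deadenylases, rose from 3.96, 4.34 and 4.57 FPKM to 6.46, 8.00 and 8.55 FPKM (0.77 ± 0.07, adjusted p = 3.58e-10). TGIF1, a homeodomain repressor of SMAD-driven transcription, rose from 2.60, 3.45 and 3.77 FPKM to 5.02, 5.95 and 6.26 FPKM (0.72 ± 0.05, adjusted p = 2.48e-14). The times did not overlap for either gene. GEM, a small GTPase that dampens calcium channels, rose by 0.74 ± 0.07, ATG14, a subunit of the lipid kinase complex that starts autophagosomes, by 0.66 ± 0.08, and RIPK4, a kinase of epithelial differentiation, by 0.65 ± 0.10, again without overlap (adjusted p = 4.31e-10, 1.16e-07 and 2.79e-05). ZNF627, a zinc finger gene, also rose without overlap, by 0.64 ± 0.09 (adjusted p = 1.14e-05).

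CLK1, a kinase that phosphorylates splicing factors, showed the spread that library types add. It measured 3.61, 4.78 and 5.44 FPKM at 1 h and 5.32, 9.05 and 10.6 FPKM at 3 h, so the lowest library at 3 h fell below the highest at 1 h, although the times were separate within every library type (log2 change 0.77 ± 0.08, adjusted p = 4.58e-09). BCL3, an atypical I-kappa-B protein, rose by 0.67 ± 0.16 (adjusted p = 0.0142), but without replicate 3 at 1 h the adjusted p was 0.0544 and without replicate 6 at 3 h it was 0.0784. ZSWIM3 (0.77 ± 0.21, adjusted p = 0.0327) and SNAI1, a repressor that drives epithelial-mesenchymal transition (0.65 ± 0.18, adjusted p = 0.0363), were the least firm of the 12 largest rises. Each was under 3 FPKM in every library, and of the 12 fits that left out 1 library they passed in 4 and 3. Their largest adjusted p values were 0.132 without replicate 6 at 3 h for ZSWIM3 and 0.105 without replicate 6 at 1 h for SNAI1.

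**Figure D1:**
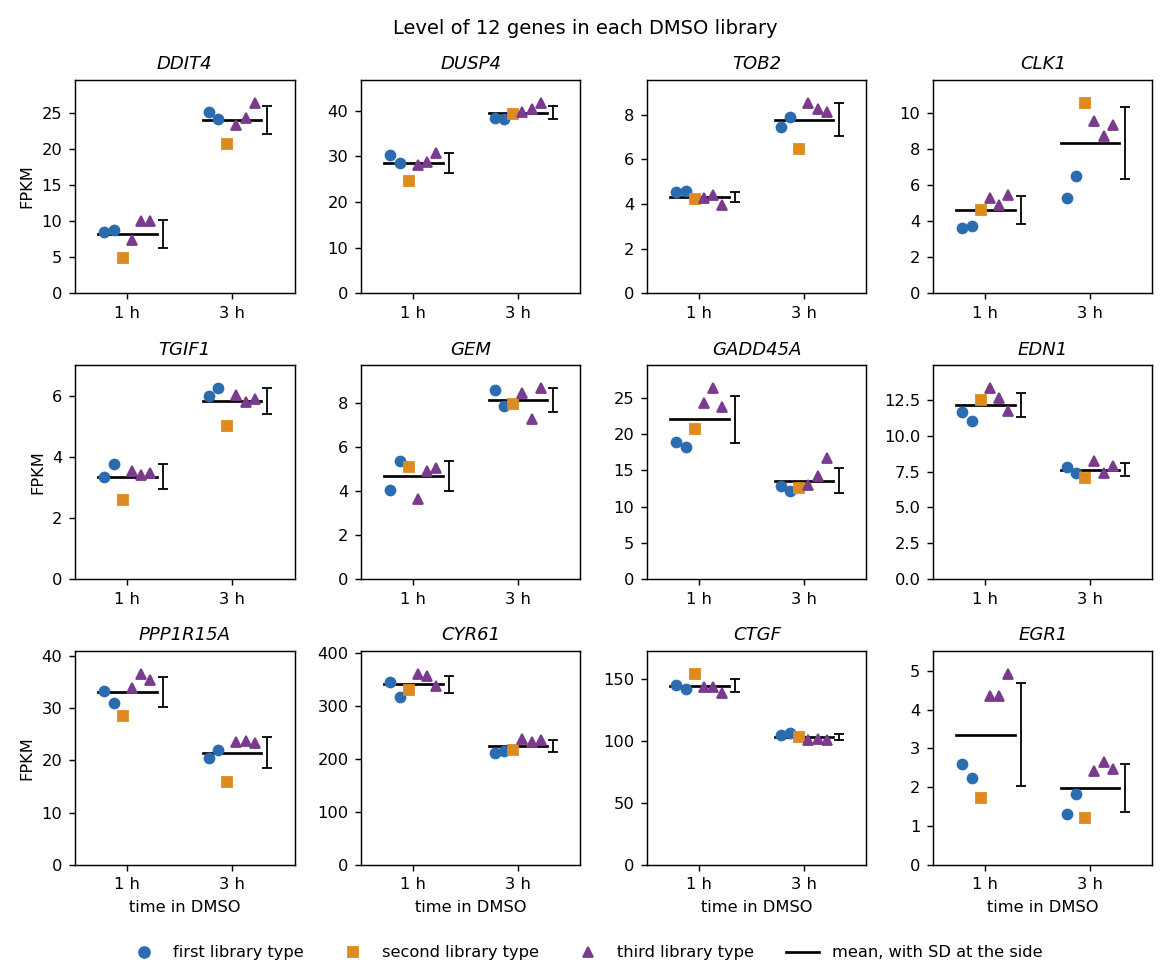
Level of 12 genes (FPKM) in each DMSO library at 1 h and 3 h. Each symbol is a library, coloured by library type, with the group mean as a line and the SD beside it; DDIT4 lay at 4.89 to 10.1 FPKM at 1 h and 20.7 to 26.4 FPKM at 3 h, and the levels of CYR61 at 3 h were all below those at 1 h.

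Promoters of 4 of the 12 named genes that fell most are shown as examples that hold the CRE, CArG or TEAD letters, chosen after the matches were seen, together with that of DDIT4, which rose. Each is the 250 bases before the start of the RefSeq gene on GRCh38.p14, 5′ to 3′ on the gene's strand, with capitals marking matches to the CRE (TGACGTCA), the CArG box of SRF, the TATA box (TATAAA) and the GGAATG element bound by TEAD factors, the partners of YAP1 and TAZ. CTGF, at chr6:131951373-131951622 on the minus strand, holds 3 GGAATG elements that end 163, 98 and 89 bases before the start, and a TATA box that ends 26 bases before it. EGR1, at chr5:138465229-138465478 on the plus strand, holds 2 CArG boxes at 95 and 73. PPP1R15A, at chr19:48872171-48872420 on the plus strand, holds a CRE at 50 and a TATA box at 24. RND3 has 2 windows, and the 1 shown, at chr2:150487668-150487917 on the minus strand, holds a CArG box at 90 and a TATA box at 24. The other holds a CArG box at 62 and no TATA box. No window was found for CYR61 and GADD45A, which also fell. DDIT4, at chr10:72273674-72273923 on the plus strand, holds none of the motifs searched in this window. Others went the opposite way: both windows of CSRNP1, which fell, and 1 of 3 of EDN1, which fell, held no match, whereas TGIF1, which rose, held a TATA box or GGAATG in 3 of its 7 windows.
CTGF: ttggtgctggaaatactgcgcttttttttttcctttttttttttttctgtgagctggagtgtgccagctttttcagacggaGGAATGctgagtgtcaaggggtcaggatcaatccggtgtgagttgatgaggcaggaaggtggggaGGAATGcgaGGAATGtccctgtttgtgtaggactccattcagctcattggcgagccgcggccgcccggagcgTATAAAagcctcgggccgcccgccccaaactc
EGR1: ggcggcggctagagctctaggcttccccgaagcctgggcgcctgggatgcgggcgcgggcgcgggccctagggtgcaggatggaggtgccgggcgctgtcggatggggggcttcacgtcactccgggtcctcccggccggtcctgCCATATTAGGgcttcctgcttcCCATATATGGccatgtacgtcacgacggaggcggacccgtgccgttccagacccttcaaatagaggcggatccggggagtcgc
PPP1R15A: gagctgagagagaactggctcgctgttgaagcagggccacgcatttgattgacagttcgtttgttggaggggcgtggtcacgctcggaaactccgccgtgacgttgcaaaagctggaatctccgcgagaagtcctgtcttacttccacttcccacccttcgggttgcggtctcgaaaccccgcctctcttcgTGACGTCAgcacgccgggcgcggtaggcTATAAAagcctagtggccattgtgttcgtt
RND3: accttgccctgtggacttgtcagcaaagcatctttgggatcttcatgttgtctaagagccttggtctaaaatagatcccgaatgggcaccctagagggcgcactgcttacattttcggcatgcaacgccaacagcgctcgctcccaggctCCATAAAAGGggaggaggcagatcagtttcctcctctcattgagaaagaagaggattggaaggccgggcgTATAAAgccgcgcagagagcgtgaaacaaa
DDIT4: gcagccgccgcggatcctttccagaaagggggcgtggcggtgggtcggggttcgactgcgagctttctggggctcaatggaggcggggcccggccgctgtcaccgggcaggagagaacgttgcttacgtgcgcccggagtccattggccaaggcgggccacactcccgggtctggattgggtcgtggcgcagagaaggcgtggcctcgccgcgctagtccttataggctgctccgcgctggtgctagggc

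The 2 secreted matricellular proteins that serve as reporters of YAP1 and TAZ fell from high levels. CYR61 measured 316, 341 and 359 FPKM at 1 h and 211, 224 and 237 FPKM at 3 h, a log2 change of -0.60 ± 0.06 (adjusted p = 2.77e-10). CTGF measured 138, 144 and 154 FPKM and then 100, 102 and 107 FPKM (-0.48 ± 0.05, adjusted p = 1.19e-08). For both genes every library at 3 h was below every library at 1 h. GADD45A, a stress gene also listed among YAP1 and TAZ targets, fell from 18.2, 22.2 and 26.3 FPKM to 12.1, 12.9 and 16.7 FPKM, again without overlap (-0.67 ± 0.09, adjusted p = 1.81e-06).

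Of the 22 YAP1/TAZ targets, all tested, 5 fell and 0 rose, beside 0.813% of all genes that fell. Besides CYR61, CTGF and GADD45A these were AMOTL2, an angiomotin that holds YAP1 in the cytoplasm (-0.38 ± 0.08, adjusted p = 0.00236), and F3, tissue factor (-0.15 ± 0.04, adjusted p = 0.018). F3 passed in 8 of the 12 fits that left out 1 library, failing without replicates 1 and 3 at 1 h and replicates 2 and 4 at 3 h (adjusted p 0.0535 to 0.0739). The list did not move as a whole, for 9 of its 22 members had a positive change and the median was -0.04, against 0.00 for all tested genes. For the 0 that rose, 9 members were at an unadjusted p under 0.05 in either direction with limma, and voom on recovered reads also called 0 higher and 5 lower. RHOB, an endosomal small GTPase, was at -0.19 ± 0.10 (adjusted p = 0.457). EDN1, which encodes endothelin-1, measured 11.1, 12.1 and 13.3 FPKM at 1 h and 7.04, 7.61 and 8.25 FPKM at 3 h (-0.64 ± 0.09, adjusted p = 3.76e-06), with no overlap.

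Among immediate early transcription factors, 2 of 18 tested fell and 0 rose (beside 0.813% and 1.29% of all genes), with a median of -0.07. EGR1 had low levels of 1.71, 3.46 and 4.91 FPKM at 1 h and 1.21, 2.11 and 2.65 FPKM at 3 h (-0.60 ± 0.13, adjusted p = 0.00437). These ranges overlapped over the 12 libraries but not within any library type. CSRNP1, a nuclear protein induced by AXIN1 and by growth signals, fell from 4.17, 6.63 and 7.29 FPKM to 2.88, 4.43 and 5.05 FPKM (-0.50 ± 0.12, adjusted p = 0.0093). With no type terms neither passed (adjusted p = 0.217 and 0.406). FOS was too low to be tested, at 0.387 to 0.951 FPKM at 1 h and 0.26 to 0.833 FPKM at 3 h. JUN (0.26 ± 0.14, adjusted p = 0.464), ATF3 (-0.26 ± 0.10, adjusted p = 0.216), IER2 (0.22 ± 0.14, adjusted p = 0.585) and JUNB (0.50 ± 0.30, adjusted p = 0.571) did not pass the threshold. For the 0 that rose, 6 of the 18 were at an unadjusted p under 0.05 in either direction, and voom called 1 higher and 3 lower.

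Beside these fell PPP1R15A, also called GADD34, which directs a phosphatase to the initiation factor eIF2 and so restores translation after stress. It measured 28.5, 33.6 and 36.6 FPKM at 1 h and 15.8, 22.7 and 23.7 FPKM at 3 h, without overlap (-0.62 ± 0.08, adjusted p = 8.38e-07). Of 20 tested genes of the unfolded protein and amino acid response, 0 rose and 2 fell, beside 1.29% and 0.813% of all genes. The list's median was 0.02, and PPP1R15A was 1 of the 2 that fell. The other was HSPA5, the chaperone BiP (-0.14 ± 0.04, adjusted p = 0.0326), which passed in 3 of the 12 fits that left out 1 library, with the largest adjusted p, 0.102, without replicate 2 at 3 h. RND3, a small GTPase that loosens actin stress fibres, fell from 35.4, 37.9 and 51.4 FPKM to 24.7, 25.6 and 34.5 FPKM with no overlap (-0.54 ± 0.06, adjusted p = 9.34e-08). The list of SRF targets and actin cytoskeleton genes had a median of 0.01. Of its 26 tested members 2 were higher and 0 lower, beside 1.29% and 0.813% of all genes. The 2 that were higher were PDLIM5, a scaffold of actin fibres, at 0.25 and CNN3, a calponin, at 0.12.

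The remaining genes among the 12 largest decreases were C8orf58 (-0.51 ± 0.14, adjusted p = 0.0288), NFKBIZ (-0.50 ± 0.11, adjusted p = 0.00671), ZNF699 (-0.48 ± 0.11, adjusted p = 0.0115) and ZNF16 (-0.47 ± 0.08, adjusted p = 0.000209). ZNF16 had 1.85, 2.12 and 2.59 FPKM at 1 h and 1.33, 1.47 and 1.52 FPKM at 3 h, without overlap. NFKBIZ (1.43 to 2.84 FPKM against 0.673 to 2.075 FPKM) and ZNF699 (1.38 to 3.82 FPKM against 1.35 to 2.00 FPKM) overlapped. Both passed in all 12 fits that left out 1 library, but not from the 12 libraries alone (adjusted p = 0.0805 and 0.166). C8orf58 overlapped (1.55 to 3.15 FPKM against 0.889 to 2.20 FPKM), and it passed in 4 of the 12 fits that left out 1 library, with the largest adjusted p, 0.0884, without replicate 5 at 3 h.

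The feedback genes of the ERK pathway rose and fell in different members, 3 higher and 2 lower of 18 tested (0.06 median, beside 1.29% and 0.813% of all genes). DUSP4, a nuclear phosphatase of ERK, JNK and p38, rose from 24.6, 28.7 and 30.8 FPKM to 38.2, 39.5 and 41.8 FPKM (0.47 ± 0.04, adjusted p = 3.58e-10). DUSP6, a cytoplasmic phosphatase of ERK, rose from 24.4, 25.1 and 27.2 FPKM to 32.2, 33.7 and 35.6 FPKM (0.40 ± 0.04, adjusted p = 8.87e-09). PHLDA1, a growth factor-induced pleckstrin-homology protein, rose by 0.30 ± 0.05 (adjusted p = 0.000315). For these 3 the 6 libraries at 3 h were all above the 6 at 1 h. DUSP5, the nuclear phosphatase of ERK (-0.29 ± 0.05, adjusted p = 0.000413), and ERRFI1, an inhibitor of the EGF receptor (-0.16 ± 0.03, adjusted p = 0.00466), fell, with overlapping ranges. DUSP1 was at -0.10 ± 0.26 (adjusted p = 0.957) and IER5L at 0.71 ± 0.35 (adjusted p = 0.406).

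The NF-kB targets had 1 member higher and 3 lower of 19 tested (beside 1.29% and 0.813% of all genes), with a median of 0.01. BCL3 rose, as above, while NFKBIZ, a nuclear cofactor of NF-kB, fell with IRF1, an interferon regulatory factor (-0.32 ± 0.06, adjusted p = 0.000449), and TNFAIP3, the deubiquitinase A20 (-0.31 ± 0.09, adjusted p = 0.0451). TNFAIP3 passed in 2 of the 12 fits that left out 1 library, with the largest adjusted p, 0.137, without replicate 3 at 1 h. Of 21 secreted factors and cytokines, 1 rose and 1 fell (beside 1.29% and 0.813%; median 0.01). IL11, a cytokine of the IL-6 family, rose by 0.49 ± 0.12 (adjusted p = 0.0213), and the adjusted p was 0.0622, 0.058 and 0.0638 without replicate 1 at 1 h and replicates 2 and 3 at 3 h, and 0.678 with no type term. EDN1 was the member that fell. CSF2 (-0.44 ± 0.28, adjusted p = 0.604) and IL6 (-0.21 ± 0.11, adjusted p = 0.437) did not pass, and CXCL8 had a median of 5.47 FPKM at both times (4.59 to 6.99 and 4.65 to 6.85 FPKM).

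Of 42 tested genes of mitosis and G2/M (beside 1.29% of all genes that rose), 8 rose and 0 fell, 37 had a positive change and the median was 0.14. GTSE1, which binds microtubules and p53, rose from 9.06, 12.1 and 13.8 FPKM to 10.8, 15.4 and 17.2 FPKM (0.30 ± 0.07, adjusted p = 0.00761). NUSAP1, a spindle protein, rose by 0.23 ± 0.05 (adjusted p = 0.00283), KIF20A, a kinesin of cytokinesis, by 0.18 ± 0.04 (adjusted p = 0.00251), and these 3 passed in all 12 fits that left out 1 library. With no type terms none of the 8 passed (adjusted p 0.0733 for KIF20A, 0.299 for NUSAP1 and 0.346 for GTSE1), and from the 12 libraries alone KIF20A and GTSE1 were at 0.0657 and 0.0506. The others were BUB1B, ANLN, PRC1, KIF2C and TPX2, at 0.10 to 0.22, which passed in 2, 7, 11, 4 and 6 of those fits. The largest adjusted p was 0.123 for BUB1B and 0.0949 for ANLN without replicate 4 at 1 h, 0.0557 for PRC1 without replicate 3 at 1 h, 0.139 for KIF2C without replicate 6 at 3 h, and 0.107 for TPX2 without replicate 2 at 1 h. From the 12 libraries alone BUB1B, ANLN, PRC1, KIF2C and TPX2 also lost their call (adjusted p 0.147, 0.196, 0.131, 0.212 and 0.206, limma). Of the 8 genes only NUSAP1 kept its call there. For the 0 that fell, 25 members were at an unadjusted p under 0.05 in either direction, and voom called 9 higher and 0 lower. The genes of DNA replication and S phase had 0 of 40 called, a median of 0.03 and 6 at an unadjusted p under 0.05, and voom called 0. The difference between these lists was not tested, and in bulk samples more cells of a phase and more RNA per cell cannot be told apart.

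Among G1 cyclins, CDK inhibitors and p53 targets, 2 rose and 1 fell of 21 (beside 1.29% and 0.813% of all genes; median 0.11). TOB2 was the larger rise, and CDKN1B, the CDK inhibitor p27, rose from 6.05, 7.26 and 7.86 FPKM to 8.61, 8.84 and 10.9 FPKM with no overlap (0.35 ± 0.07, adjusted p = 0.00392). PLK2, a stress-responsive polo-like kinase, fell from 72.0, 77.8 and 83.5 FPKM to 54.8, 61.3 and 70.1 FPKM, also with no overlap (-0.32 ± 0.04, adjusted p = 7.05e-08).

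Hormone, clock and nutrient genes moved in few members. Beside the counts that follow, 1.29% of all tested genes rose and 0.813% fell. The glucocorticoid response list had DDIT4 higher and SGK1 lower among 11 tested. SGK1, a kinase induced by serum and glucocorticoids, fell from 4.71, 4.91 and 5.15 FPKM to 3.47, 3.56 and 3.98 FPKM with no overlap (-0.40 ± 0.05, adjusted p = 1.78e-06). Of 16 clock genes, CRY1, a repressor of the clock, rose by 0.26 ± 0.05 (adjusted p = 0.00122) and NPAS2, an activator, fell by 0.28 on the log2 scale (SE 0.06, adjusted p = 0.00226). PER1 and PER2, the clock repressors that serum is known to induce, were at -0.03 ± 0.12 and 0.04 ± 0.12 (adjusted p = 0.974 and 0.967). KLF11, the 1 called of 10 Krüppel-like factors tested (median -0.11, 2 positive), fell from 8.08, 9.22 and 9.98 FPKM to 6.36, 6.67 and 6.99 FPKM, without overlap (-0.44 ± 0.06, adjusted p = 1.17e-05).

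In the glucose, glycolysis and hypoxia list 2 rose and 2 fell of 23 (beside 1.29% and 0.813% of all genes; median 0.05). TXNIP, a brake on glucose uptake that senses glucose through MondoA and ChREBP, rose from 123, 132 and 137 FPKM to 157, 159 and 165 FPKM with no overlap (0.28 ± 0.04, adjusted p = 9.97e-07). SLC2A3, the glucose transporter GLUT3, rose by 0.26 ± 0.06 (adjusted p = 0.0061), also without overlap. PFKFB4 (-0.26 ± 0.06, adjusted p = 0.0166) and HK2, hexokinase 2 (-0.20 ± 0.05, adjusted p = 0.0203), fell, and passed in 9 and 6 of the 12 fits that left out 1 library, with the largest adjusted p, 0.0671 without replicate 2 at 1 h and 0.0668 without replicate 5 at 3 h. TGIF1 was the 1 of 17 TGF-beta and BMP genes called, and ID1, a BMP target, was at 0.62 ± 0.21 (adjusted p = 0.115).

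Several stress and growth lists had 0 members called by limma. For heat shock (17 tested), cholesterol synthesis (23), FOXO targets (16), ribosome biogenesis (30), interferon-stimulated genes (23), metallothioneins and zinc (8) and the mitochondrially encoded messages (13), the members at an unadjusted p under 0.05 numbered 3, 0, 3, 3, 8, 0 and 2, where 11.8% of all tested genes were. Voom called 1 higher and 1 lower among FOXO targets and 0 in the other 6. HSPA1A, the inducible HSP70, measured 47.7, 73.9 and 84.0 FPKM at 1 h and 49.9, 90.6 and 92.6 FPKM at 3 h (0.19 ± 0.17, adjusted p = 0.785), and its near-identical copy HSPA1B was at 0.20 ± 0.15 (adjusted p = 0.686); reads shared by the pair cannot be assigned with certainty. The mitochondrially encoded list, whose member MT-ND6 was used to tell the library types apart, had a median of -0.11 and 1 of 13 members positive. Of 30 ribosomal protein genes, kept as a sign of RNA quality, limma and voom called 0, and 0 were at an unadjusted p under 0.05. The same counts were 0, 0 and 1 for the 4 tested fibroblast markers, and 0 throughout for the 1 endothelial and 2 leukocyte markers tested. The lists of NRF2 and aryl hydrocarbon receptor targets, AU-rich decay and epithelial and mesenchymal factors had 1 member called higher each. They held 18, 17 and 9 tested genes, and 1.29% of all genes rose. The members called were CYP1B1 (0.23 ± 0.05, adjusted p = 0.00998), ZFP36L1 (0.24 ± 0.06, adjusted p = 0.0245) and SNAI1. ZFP36L1 passed in 7 of the 12 fits that left out 1 library. Of 5 cold-inducible RNA-binding genes SRSF2 rose. Of the 14 tested members of a list of nuclear RNAs, non-polyadenylated RNAs and histone genes, the linker histone gene H1F0 rose.

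**Figure D2:**
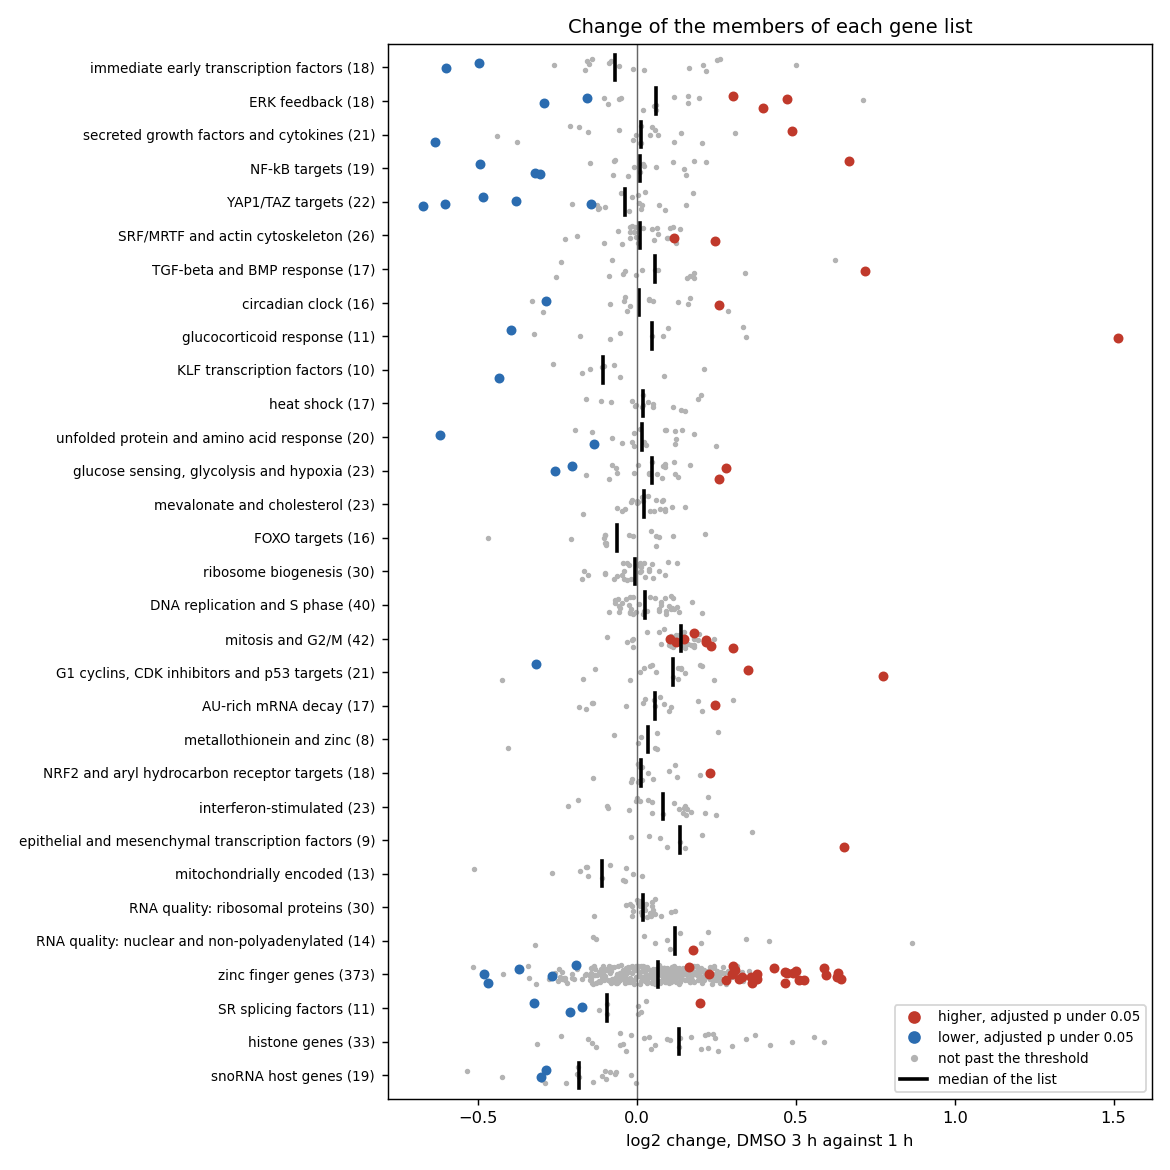
Log2 change from 1 h to 3 h in DMSO of every tested member of each gene list with at least 8 tested members (number in brackets). Red and blue points passed the threshold upward and downward, grey points did not, and the black bar is the list's median; YAP1/TAZ targets had 5 blue points and mitosis and G2/M 8 red points. The last 4 lists were chosen after the values were seen.

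A further group was picked after the values had been seen, by gene symbol. Of 373 tested zinc finger genes (ZNF, ZKSCAN, ZSCAN and ZFP symbols), 25 rose and 5 fell, beside 1.29% and 0.813% of all genes. Their median was 0.07 against 0.00 over all genes. The median was -0.02 in the first library type and 0.14 in the third. In treated cells 38 rose and 36 fell from 1 h to 3 h (beside 6.13% and 8.28% of all genes), with a median of -0.02. These are mostly KRAB-type repressors in recent duplicate clusters, so short reads can be split between copies. Of the 4 CLK kinases 2 rose (beside 1.29% of all genes), CLK1 and CLK4 (0.46 ± 0.10, adjusted p = 0.00664), and all 4 had a positive change. Among 11 SR splicing factors, which are CLK substrates, 3 fell and 1 rose (beside 0.813% and 1.29% of all genes). SRSF6 fell from 48.3, 55.0 and 59.0 FPKM to 38.5, 44.0 and 45.3 FPKM with no overlap (-0.32 ± 0.04, adjusted p = 1.16e-07), whereas SRSF2 rose by 0.20 ± 0.05 (adjusted p = 0.0398) and passed in 0 of the 12 fits that left out 1 library (adjusted p up to 0.119, without replicate 6 at 1 h).

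Host genes of small nucleolar RNAs, also chosen after the values were seen, leaned the other way. Of 19 tested, 0 had a positive change against 51% of all tested genes, and the median was -0.18. The 2 called were SNHG1 (-0.30 ± 0.08, adjusted p = 0.0235) and GAS5 (-0.29 ± 0.06, adjusted p = 0.00689), beside 0.813% of all genes that fell. In treated cells 1 of the 19 had a positive change from 1 h to 3 h and the median was -0.26. There 6 were called lower, beside 8.28% of all genes. Histone genes, 33 of them tested, had 0 called, 0 at an unadjusted p under 0.05, 0 by voom and a median of 0.13.

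As a whole the genes that rose were poorer in GC and the called genes in both directions were longer than the genes tested. The median GC content was 43.4% for those that rose, 48.3% for those that fell and 47.7% for all tested genes, known for 13279 genes (83.7%). With each library's trend on GC taken out, 643 genes were called, 393 higher and 250 lower, of 13279 genes with a GC value. They held 314 of the 333, some of which have no GC value and were not in that fit. The median exon length was 5386 bases for genes that rose and 5902 for genes that fell, against 3551 for all tested. Those above 10000 bases made up 12.3%, 17.8% and 7.33%, and the part of length in the calls was not tested.

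Promoter windows were found for 161 of the 204 genes that rose and 106 of the 129 that fell (249 and 158 windows, on both strands, some genes with several starts). The TATA box occurred in 3.61% of the windows of genes that rose and in 10.8% of those of genes that fell, against 5.70% of the 13516 windows of tested genes and 10.7% of all 35116 windows. The CRE occurred in 2.01%, 4.43% and 2.63% (tested) and the CArG box in 0.402%, 1.90% and 1.13%, and the E-box CACGTG in 8.84%, 7.60% and 8.31%. The NF-kB motif occurred in 0%, 0.633% and 0.185%, and the GGAATG element in 12.4%, 9.49% and 9.88%. These shares describe letters in a window and were not tested.

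The same step was measured in separate libraries from treated cells, 9 at each time, all of which held the compound. The treated libraries were 5 of the first type and 4 of the second at 1 h, and 8 and 1 at 3 h, so the types were not balanced as they were in DMSO. There 2286 genes changed (14.4%), 973 higher (6.13%) and 1313 lower (8.28%). Of the 204 genes that rose in DMSO, 149 (73.0%) also rose in treated cells, which is 15.3% of the treated list, and 196 had the same sign. Of the 129 that fell in DMSO, 112 (86.8%) also fell, 8.53% of the treated list, and 128 had the same sign. Over all other tested genes 63.9% had the same sign. Across the 333 genes Pearson's r between the 2 sets of log2 changes was 0.87, given as a description across genes, which are not independent replicates. DDIT4 rose by 1.82 ± 0.07 in treated cells, and the difference from DMSO was 0.30 ± 0.11 (adjusted p = 0.561). TOB2 rose by 0.70 ± 0.06 and TGIF1 by 0.90 ± 0.04. The opposite sign past the threshold was seen for 1 gene, ZFP36L1, an AU-rich mRNA decay factor, at 0.24 in DMSO and -0.16 in treated cells.

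**Figure D3:**
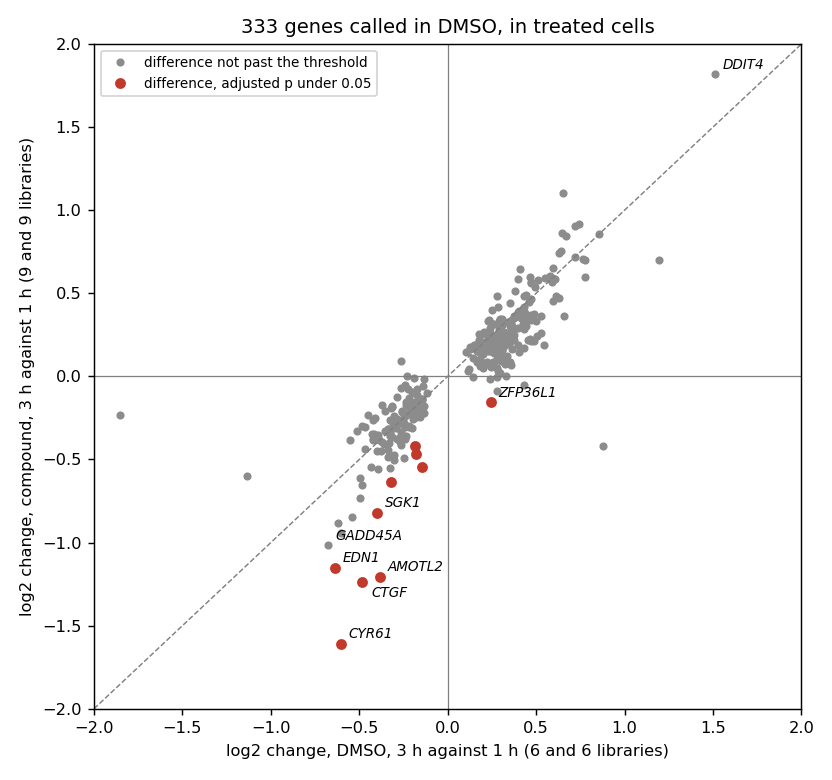
Log2 change from 1 h to 3 h in DMSO (horizontal) against that in cells given the compound (vertical) for the 333 genes called in DMSO, with the line of equality dashed. Red points are genes whose difference passed the threshold; CYR61 lay at -0.60 in DMSO and -1.61 in treated cells.

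Of the 15866 genes, 22 differed in this step between treated and DMSO cells (0.139%), 2 more upward and 20 more downward in treated cells. CYR61 fell by 1.61 in treated cells against 0.60 in DMSO (difference -1.005 ± 0.07, adjusted p = 1.84e-13), and CTGF fell by 1.24 against 0.48 (difference -0.76 ± 0.07, adjusted p = 2.14e-10). AMOTL2 (-0.82 ± 0.10), EDN1 (-0.51 ± 0.12), SGK1 (-0.42 ± 0.07), F3 (-0.40 ± 0.05), ZFP36L1 (-0.40 ± 0.08) and PLK2 (-0.32 ± 0.05) were also lower in treated cells, with adjusted p from 9.42e-05 to 0.0461 apart from AMOTL2 and F3 (8.64e-07 and 5.11e-07). RHOB was the reverse, at -0.19 in DMSO and 0.51 in treated cells (difference 0.69 ± 0.13, adjusted p = 0.0019). Of the YAP1/TAZ list 9 of 22 fell in treated cells, where 8.28% of all genes fell, and 5 of 22 in DMSO, where 0.813% did. GADD45A (difference -0.34 ± 0.12, adjusted p = 0.511) and PPP1R15A (-0.26 ± 0.10, adjusted p = 0.614) did not pass.

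The DMSO libraries at 6 h show what followed. From 3 h to 6 h 621 genes changed (3.91%), 397 higher (2.5%) and 224 lower (1.41%). The 3 h libraries enter both steps, so their spread is shared, and values are given side by side. Of the 204 genes that rose by 3 h, 16 then fell and 13 rose further. Of the 129 that fell, 34 then rose and 5 fell further. CYR61 rose to a median of 269 FPKM at 6 h (261 to 315, all below the 316 to 359 at 1 h; log2 change from 3 h 0.37 ± 0.06, adjusted p = 0.000192), and measured 222 FPKM at 24 h. GADD45A (0.47 ± 0.10, adjusted p = 0.00433) and EDN1 (0.38 ± 0.10, adjusted p = 0.0218) also rose. CTGF was at 0.09 ± 0.06 (adjusted p = 0.47) and PPP1R15A at 0.05 ± 0.09 (adjusted p = 0.832).

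Of the genes higher at 3 h, DDIT4 was at -0.14 ± 0.10 (adjusted p = 0.488) from 3 h to 6 h and TGIF1 at -0.03 ± 0.06, with a median of 6.00 FPKM at 6 h and 6.24 FPKM at 24 h. DUSP6 fell by 0.22 (SE 0.05, adjusted p = 0.00425) and CLK1 by 0.43 (SE 0.09, adjusted p = 0.00309). SRSF6 fell further by 0.45 (SE 0.04, adjusted p = 8.8e-10). Of the 42 mitosis and G2/M genes 13 rose from 3 h to 6 h and 0 fell, beside 2.5% and 1.41% of all genes. The list's median was 0.18. Among those that rose was KIF20A (0.35 ± 0.04, adjusted p = 2.18e-07), which reached a median of 61.6 FPKM at 24 h. Heat shock genes had 6 of 17 higher from 3 h to 6 h (beside 2.5% of all genes), including HSPA1A (0.86 ± 0.20, adjusted p = 0.00666). HSPA1A measured 109, 137 and 202 FPKM at 6 h and a median of 97.7 FPKM at 24 h. The 6 h group held 5 libraries of the first type and 1 of the second, and none of the third, so this step leans on the type terms, and with no type terms 80 genes were called in place of 621.

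**Figure D4:**
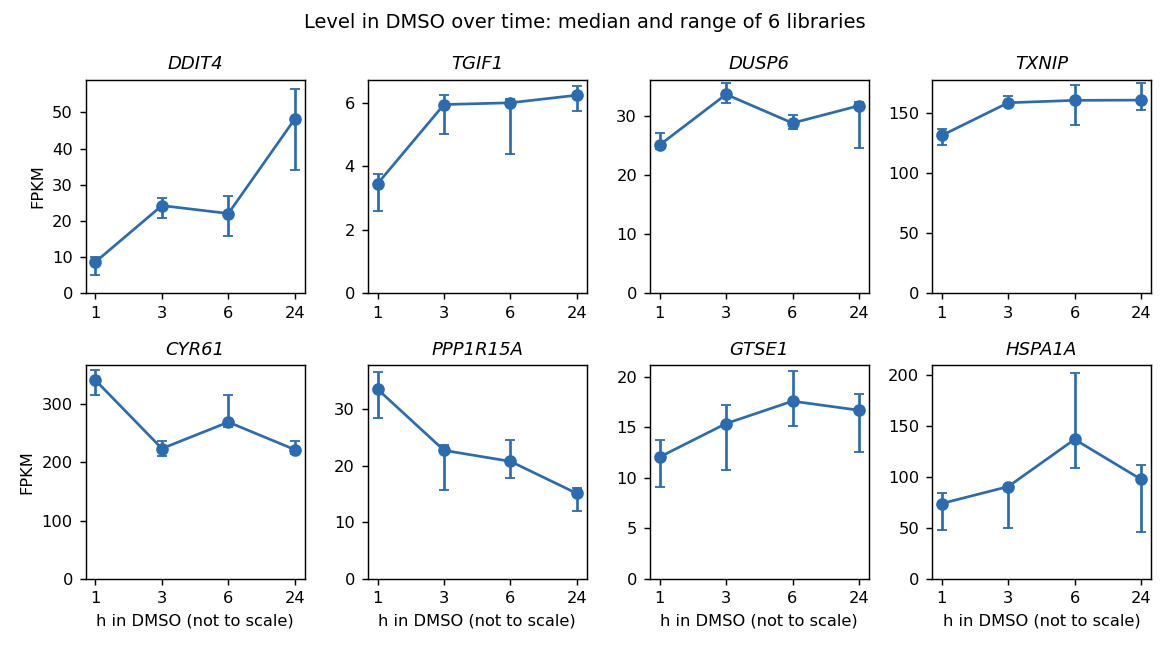
Level (FPKM) of 8 genes in DMSO at 1, 3, 6 and 24 h, drawn as the median of 6 libraries with the range as bars; the time axis is not to scale. DDIT4 rose to a median of 24.2 FPKM at 3 h and 48.2 FPKM at 24 h, CYR61 fell from 341 to 224 FPKM between 1 h and 3 h, and HSPA1A had its highest median, 137 FPKM, at 6 h.

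The change was also estimated within each library type, by contrasts of the fit to all 60 libraries. Of the 204 genes that rose 196 had a positive change in every type, and all 129 that fell had a negative one, but the same 12 libraries chose the genes, so this is a description. The contrast in the first type, with 2 libraries at each time, called 66 genes (0.416%), 18 higher and 48 lower. That in the third type, with 3 at each time, called 113 (0.712%), 94 higher and 19 lower, so the balance of directions was opposite. In the third type against the first the difference itself passed for 0 genes with limma (899 at an unadjusted p under 0.05, and 14 called by voom). DDIT4 was at 1.46 ± 0.14 in the first type and 1.97 ± 0.20 in the second. CYR61 was at -0.63 ± 0.10, -0.60 ± 0.14 and -0.58 ± 0.08. EGR1 was at -0.50 ± 0.23, -0.37 ± 0.32 and -0.74 ± 0.19. MT-ND6 itself, which set the third type, is not read as a result.

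**Figure D5:**
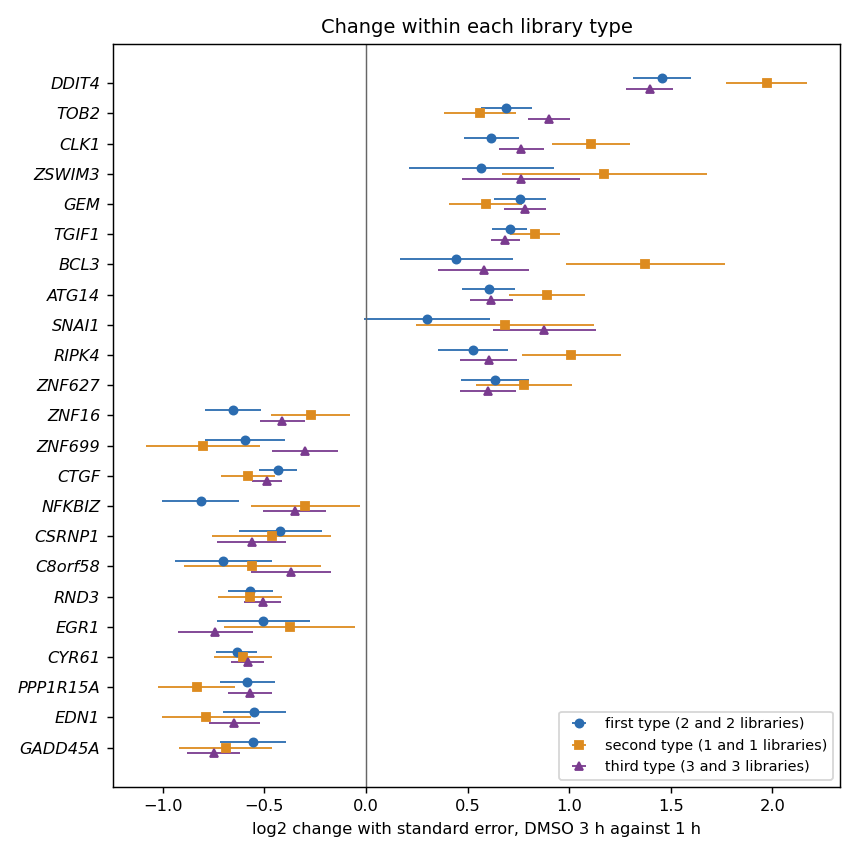
Log2 change from 1 h to 3 h in DMSO with its standard error for the genes with the largest changes, estimated separately in libraries of the first, the second and the third type. The rule that chose the genes required the same sign in every type, so the side of 0 is no result; DDIT4 was at 1.46 in the first type and 1.97 in the second. The second type has 1 library at each time and takes its spread from the whole fit.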

How the data were processed

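The authors deposited 1 table of log2(FPKM + 1) per gene and library, made from single 50-base reads of stranded mRNA libraries per the labels' protocols. The submitters' processing notes name STAR 2.4.2a, hg19, featureCounts 1.4.6-p2 of Subread and DESeq2, and for the gene annotation the release was not given in the sources used here. Values were converted back to FPKM, and whole reads were recovered (100% of 1304094 values above 0 within 0.01 of a whole number). The recovery took for each gene a length that makes its reads whole, so this share is no check of the recovery. The test took the 15866 genes (of 36114 above 0) that reached 1 FPKM in 3 or more libraries. The model was fitted with limma 3.58.1 (R 4.3.3) on log2(FPKM + 0.5) over all 60 libraries, with 16 group means and 2 library type terms (42 residual degrees of freedom), robust variances and Benjamini-Hochberg adjustment over all tested genes. Treated cells were taken as the mean of 3 doses. The third type was defined by MT-ND6 above 20 FPKM and the second by an index of 11 pseudogenes. No pair of libraries within DMSO at 1 h or within DMSO at 3 h was alike within sampling noise. The closest pairs were replicates 2 and 6 at 1 h and replicates 4 and 5 at 3 h. Their chi-square over its degrees of freedom was 2.145 and 1.562, where sampling noise alone gives 1. These pairs are the first-type libraries of the 2 groups.

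Named genes were the 12 largest changes in each direction among called genes at 1 FPKM or more, with the same sign in every type and a standard symbol, up to 3 members of each of 33 lists with the largest change, and a set of early response, clock and stress genes. Other called list members were named after their values were seen, as were 5 added lists and the GGAATG motif. The comparison and lists were chosen with earlier results of these data known. Promoter sequences are RefSeq's on GRCh38.p14, another build than the files'. Alternatives changed the pseudocount (0.1), filter, scaling, weights, type terms, libraries, GC trend and test (voom on recovered reads). The scripts were tested on simulated data. A result for 1 of the genes that the naming rule chose is not reported here.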

Additional observations from a re-analysis of the deposited data

Results flagged for a closer look

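A single library stood apart from the other 5 of its group in 21 of 172 groups of 6 checked, where chance gives about 1 in 20. Replicate 3 at 1 h and replicate 6 at 3 h, the libraries of the second type, made up 18 of the 21. Replicate 3 at 1 h was lowest for TGIF1 (2.60 FPKM, next 3.36), CSRNP1 (4.17, next 6.38), DUSP5 (19.2, next 25.6), IL11 (1.75, next 3.01), IRF1 (7.07, next 9.96), NR1D1 (2.42, next 4.75), PER1 (0.375, next 0.937) and PFKFB4 (2.17, next 2.85 FPKM). It was highest for RND3 (51.4, next 38.4), TPX2 (135, next 110) and HSPA5 (317, next 276 FPKM). Replicate 6 at 3 h was lowest for TGIF1 (5.02, next 5.80) and AMOTL2 (11.4, next 16.9 FPKM), and highest for RND3 (34.5, next 27.2), ANLN (133, next 103), TPX2 (142, next 119), HSPE1 (57.3, next 41.6) and HSPA5 (296, next 248 FPKM). Of the rest, replicate 2 at 1 h was highest for ZSWIM3 (1.30, next 0.885 FPKM), replicate 4 at 1 h lowest for HK2 (9.71, next 11.4 FPKM) and replicate 1 at 3 h highest for SGK1 (3.98, next 3.60 FPKM). Without both second-type DMSO libraries 222 genes were called.

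The change from 1 h to 3 h differed between treated and DMSO cells, by the test of the difference, for 9 of the genes named. On the log2 scale treated minus DMSO was -1.005 for CYR61, -0.82 for AMOTL2, -0.76 for CTGF, -0.51 for EDN1, -0.42 for SGK1, -0.40 for F3, -0.40 for ZFP36L1, -0.32 for PLK2 and 0.69 for RHOB.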

How the results depend on the processing

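The 333 genes called from 1 h to 3 h in DMSO became 85 with no type terms, 1547 with array weights, 588 with voom, 142 from the 12 libraries alone, 159 from the 24 DMSO libraries, 643 with the GC trend taken out and 0 in a fit to libraries of the third type alone (1095 at an unadjusted p under 0.05, with fewer libraries). With 1 library left out they numbered 223 to 478, and without replicate 4 at 1 h there were 175 higher and 303 lower. The split of 204 higher and 129 lower became 120 and 220 in a fit to libraries of the first type alone, 104 and 198 without the third, and 731 and 816 with array weights. Of the 24 genes with the largest changes, chosen as called and of 1 sign in every type, 20 passed in all 12 fits that left out 1 library. They passed least often with no type terms (16), in the first type alone (16) and in the third alone (0). The 2286 treated calls became 1232 with no type terms and 3863 with array weights, and 1837 to 2290 without 1 library. The 22 differences became 85 with array weights, 11 in the first type alone, 51 with voom, 12 without the third type and 44 with the GC trend taken out, and 16 to 27 without 1 library. The 621 calls from 3 h to 6 h became 400 with no filter, 80 with no type terms, 1994 with array weights, 957 in the first type alone, 936 without libraries under 2 M reads, 202 from the 24 DMSO libraries, 953 without the third type and 1022 with the GC trend taken out. They numbered 242 to 670 without 1 library, with 301, 304 and 242 without replicates 4, 5 and 6 at 3 h. Calls by the contrast within the first type in the fit to all libraries, 66, became 364 with no filter and 170 with voom, those within the third, 113, became 188 and 662, and the third minus the first, 0, became 20 and 14. The cause of these moves was not tested. The GC trend and the fit without second-type DMSO libraries were chosen after seeing the data. Of the values of single genes, called or not, 3078 stayed on their side of the threshold, 340 lost a call and 66 gained one. Where a gene was called in either fit, 0 values changed sign. Sign changes of genes called in neither fit were not counted, such as that of PER1 (-0.28 to 0.13 over the alternatives). No paired analysis was possible because the replicate numbers are in accession order and pair no libraries. Depth limits genes near 1 FPKM, some of which rest on a few reads.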
